A study of Mus musculus with 6 samples.

Results

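Primary mouse astrocyte cultures treated for 48 h with Ro3303544, an inhibitor of glycogen synthase kinase 3 (GSK-3) called Ro here, were compared with control cultures across all genes on the array. The comparison rests on 4 of the 6 one-colour Agilent arrays of the study, 2 labelled Ro and 2 labelled control, chosen by their labels alone. The other 2 arrays hold cultures from which the inhibitor had been washed out, and they were not compared here. All cultures came from the cortex and striatum of wild-type C57BL/6J mouse pups at postnatal day 1. All were exposed at about day 7 to 5 µM AraC for 2 days, a blocker of DNA synthesis that removes dividing cells. Ro cultures received 1 µM Ro3303544 from 13 days in vitro. Control cultures are labelled as kept in medium with 10% serum, while the protocol speaks of DMSO in an equivalent amount, so the exact vehicle of the control arrays is not settled by the labels. The labels state that fewer than 1% of cells carried the microglial protein Iba1. Whether replicate cultures were prepared separately is not stated, so that p-values measure only the spread between these samples, which may be technical.

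GSK-3 phosphorylates beta-catenin inside a destruction complex built on Axin and APC, which marks it for degradation. When a Wnt ligand binds Frizzled and its co-receptors, or when the kinase is inhibited, beta-catenin accumulates, enters the nucleus and acts with TCF/LEF factors on target genes, many of which encode inhibitors of the same pathway. GSK-3 was named for glycogen synthase, which it also phosphorylates, and it acts on many other proteins in metabolism, translation and the cytoskeleton. Astrocytes take up glutamate, buffer potassium, store glycogen and are joined by gap junctions, and the pathway takes part in their development.

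The gene with the largest rise among those measured on all 4 arrays was Sp5, a zinc finger transcription factor and a known target of Wnt and beta-catenin. Its promoter is shown because it holds the sequence CTTTGAT, a core of the sites that TCF/LEF factors bind. By the same rule the promoter of Wnt11, which encodes a Wnt ligand, is shown. Candidates were drawn from the 20 largest rises and the Wnt genes called higher. Left out were genes not well above background on either control array, without a promoter in the RefSeq table, or on a chromosome not searched. Notum, Cbln1 and Apcdd1 were therefore not among the candidates. Among the candidates searched, only Sp5 and Wnt11 held the core. It was not found in the promoters of Rnf43, Nkd1, Wif1, Tnfrsf19, Lef1 and Axin2, in the window described below. Both sequences shown are the 250 bases before the gene start in the RefSeq table of build GRCm38.p6, on the plus strand, with the core in capitals. The Sp5 window is chr2:70474673-70474922 and the core starts 104 bases before the gene start. The Wnt11 window is chr7:98834862-98835111, with the core on the opposite strand (ATCAAAG as written here) from 51 bases before the gene start.
Sp5: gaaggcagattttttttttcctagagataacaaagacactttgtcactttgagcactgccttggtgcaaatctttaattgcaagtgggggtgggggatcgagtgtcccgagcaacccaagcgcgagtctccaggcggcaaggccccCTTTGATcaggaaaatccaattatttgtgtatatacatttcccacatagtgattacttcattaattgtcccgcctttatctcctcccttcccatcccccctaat
Wnt11: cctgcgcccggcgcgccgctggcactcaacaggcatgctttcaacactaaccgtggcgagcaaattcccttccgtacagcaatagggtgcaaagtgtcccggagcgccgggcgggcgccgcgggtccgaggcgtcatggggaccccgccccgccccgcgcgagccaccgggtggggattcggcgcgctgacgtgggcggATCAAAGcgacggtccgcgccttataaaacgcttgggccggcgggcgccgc
On the scale used throughout, which is the log2 processed intensity minus that array's 75th percentile, Sp5 stood at -4.18 and -4.21 on the control arrays and at 3.99 and 4.08 on the Ro arrays. Wnt11 stood at -3.80 and -3.75 on the control arrays and at -3.43 and -3.37 on the Ro arrays. The groups did not overlap for either gene, but the difference was 8.23 ± 0.07 for Sp5 and 0.37 ± 0.07 for Wnt11 (standard error from limma, 2 arrays per group). The call of Wnt11 (adjusted p = 0.018 by limma) was lost without control 1, Ro 1 or Ro 2, with adjusted p of 0.060, 0.088 and 0.11.

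The core was searched on both strands in 300 bases, from 250 before to 50 after the first listed start of each gene. It was present in 3.72% of the 27025 promoters in the table and in 2.41% of the 10437 tested genes with a promoter there. Among genes at least 4-fold higher in Ro, 4 of the 146 with a promoter held it (2.74%), and among those at least 4-fold lower 4 of 141 did (2.84%). By fitted difference, 4 of 80 genes at least 8-fold higher held it (5%), and 2 of 38 at least 16-fold higher (5.26%). These counts are too small to compare. The 4 higher genes were Sp5, Mst1r, Hal and Bpifb5, and the 4 lower genes were Mb, Tgm1, Cntn1 and Slco1a6. All 8 are named by the motif, after their values were seen, and the call of Hal was lost without Ro 2 (adjusted p = 0.059 by limma). Shares of other searched cores in the 4-fold higher, the 4-fold lower and all tested genes were 11.6%, 12.1% and 14.7% for the antioxidant response element core TGACNNNGC. They were 1.37%, 2.13% and 3.10% for the cyclic AMP response element TGACGTCA, 13.0%, 10.6% and 11.9% for the TEAD core CATTCC, and 2.74%, 2.84% and 2.93% for the core of the interferon-stimulated response element. A match is a description of the letters in this window only.

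The control and Ro arrays lay on 1 slide, each group in positions of its own next to the other, so that slide position and treatment cannot be told apart. On each array 62.3% to 65.2% of probes were called well above background, the processed intensity at the 75th percentile was 629 to 804, and no probe kept for the test was saturated. Across the features tested the control arrays correlated at r = 0.995 and the Ro arrays at r = 0.996, and pairs of 1 control and 1 Ro array at 0.962 to 0.966. These correlations are across genes, which are not independent replicates. Of 32 astrocyte markers on the array, 31 were measured, among them Gfap, Aqp4, Aldh1l1, Slc1a2 and Slc1a3 on all 4 arrays. The number of arrays limits the precision. For a single gene the exact two-sided permutation test has a smallest p of 0.333 at this size. The calls therefore rest on limma's model, which also shares the spread across genes.

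The inhibitor was followed by changes across a large share of the transcriptome. Of 20026 features tested, which are genes with a symbol or accessions without one, 44.3% passed an adjusted p of 0.05. Of all tested, 4142 (20.7%) were higher in Ro and 4738 (23.7%) were lower. These shares are the background against which each gene group below is to be read. The arrays were left out 1 at a time: without Ro 1 the counts were 1627 and 2548, and without Ro 2 they were 1875 and 2723. Counts given below without an array come from such fits, where fewer features pass in general. The median difference over all features was 0.003, and the smallest difference past the test was 0.23 on the log2 scale. The arrays of the 2 groups did not overlap for 15511 features (77.5%).

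The falls outnumbered the rises at the adjusted p alone and at 2-fold, and the rises outnumbered the falls from 4-fold upwards. With the authors' values 4346 features were higher and 4024 lower, so that the order at the adjusted p turned. At least 2-fold changes were 887 higher (4.43%) and 1406 lower (7.02%), while at least 4-fold changes were 297 higher (1.48%) and 250 lower (1.25%). At 8-fold the counts were 136 higher and 39 lower, at 16-fold 67 and 6, and at 32-fold 29 and 0. These counts use fitted differences, which are no measure of size for the 612 features without a signal well above background in 1 group. With those features set at the lower bound explained below, the 4-fold counts were 220 higher and 173 lower, the 8-fold counts 95 and 18, and the 16-fold counts 40 and 4. The plot of all named genes shows the longer upper tail.

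**Figure D1:**
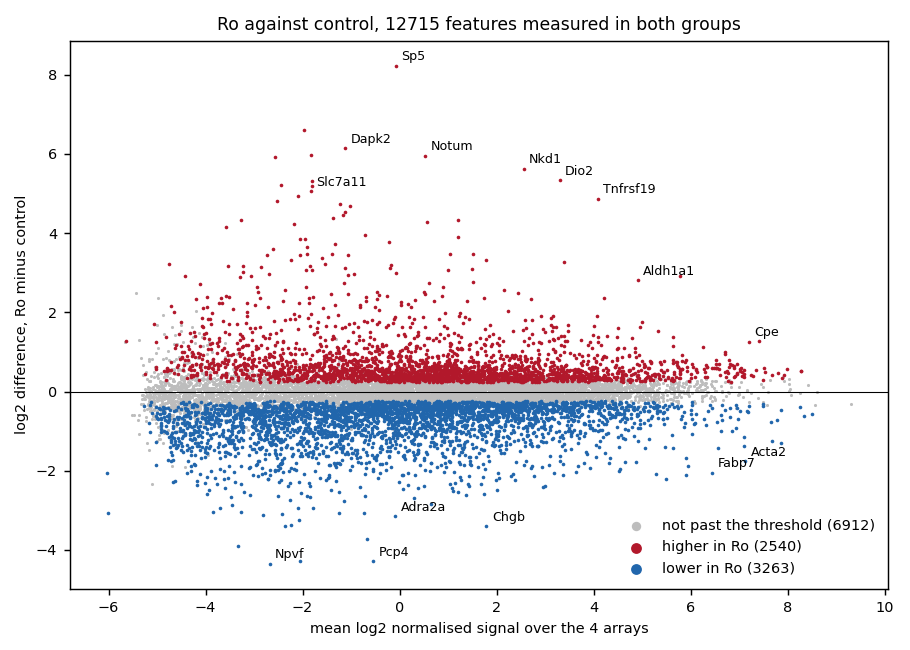
Difference between Ro and control (log2, y axis) against the mean level over the 4 arrays (log2 relative to each array's 75th percentile, x axis) for genes with a symbol measured in both groups. Labels mark chosen genes, among them some of the largest rises and falls. Of 12715 genes drawn, 2540 were higher, 3263 lower and 6912 did not pass the test, and Sp5 lies highest.

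Among the 20 largest rises, genes of the Wnt pathway stood beside genes of other kinds. Dapk2, a kinase linked to cell death, stood at -4.15 and -4.25 in control and at 1.98 and 1.91 in Ro, a rise of 6.15 ± 0.08. Dio2, the deiodinase that activates thyroid hormone, stood at 0.63 and 0.62 in control and at 6.11 and 5.82 in Ro, a rise of 5.34 ± 0.12. Slc7a11, the cystine and glutamate exchanger, stood at -4.39 and -4.32 against 0.81 and 0.60, a rise of 5.06 ± 0.10, and its 3 probes gave between 4.80 and 5.22. For each of these genes both Ro arrays lay far above both control arrays. The other rises of this size were those of Cxcr6, a chemokine receptor (5.19 ± 0.23), Adamts18, a matrix protease (4.95 ± 0.07), Ahrr, the repressor of the aryl hydrocarbon receptor (4.81 ± 0.11), Dapl1 (4.69 ± 0.09), Prok2, a secreted prokineticin (4.54 ± 0.10), Rnase1, a secreted ribonuclease (4.47 ± 0.18), and Cadps, which primes dense-core vesicles for release (4.33 ± 0.10). Cbln1, a synaptic organiser of the cerebellum, rose by 5.22 ± 0.08 on its brighter probe and by 1.21 on the other. Adjusted p by limma lay between 0.00025 and 0.00099 for all these genes.

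Some genes had no probe well above background on either control array, and for these only a lower limit of the rise can be stated. It sets the Ro mean against the higher of the gene's own control signal and the lowest signal called above background on each control array. Grem1, a secreted antagonist of bone morphogenetic proteins, was at least 52.4-fold higher in Ro (adjusted p = 0.00038 by limma). Aox3, an aldehyde oxidase, was at least 48.3-fold higher, and Ankrd34b at least 44.2-fold. Pmch, the precursor of melanin-concentrating hormone, was at least 17.2-fold higher, the receptor kinase gene Mst1r at least 15.7-fold and Neurog2, a proneural transcription factor, at least 14.7-fold. Trpm1, a cation channel, was at least 14.7-fold higher and Slc43a1, an amino acid transporter, at least 14.5-fold. In all, 115 genes with a symbol were called higher with no signal well above background in control, and 154 were called lower with none in Ro.

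The 20 largest falls were of genes of many kinds. Npvf, the precursor of RFamide peptides, stood at -0.54 and -0.48 in control and at -4.98 and -4.73 in Ro, and so fell by 4.35 ± 0.11. Pcp4, a small regulator of calmodulin, stood at 1.67 and 1.52 against -2.71 and -2.67, a change of -4.29 ± 0.08. Cnmd, the cartilage protein chondromodulin, stood at 0.02 and 0.12 against -4.21 and -4.18, a change of -4.27 ± 0.07. Both Ro arrays lay far below both control arrays for these genes. Inmt, an amine N-methyltransferase, fell by 3.73 ± 0.15, the granin Chgb by 3.40 ± 0.07, Nppc, the precursor of C-type natriuretic peptide, by 3.39 ± 0.17, the glycosyltransferase B3galt5 by 3.37 ± 0.13 and the cartilage matrix gene Ucma by 3.25 ± 0.10. The alpha-2 adrenergic receptors Adra2a and Adra2c fell by 3.15 ± 0.11 and 3.11 ± 0.36. Further falls were those of Marchf4, a ubiquitin ligase (-3.10 ± 0.07), Cmtm5 (-3.07 ± 0.11), Sox8, a transcription factor of the glial lineage (-3.07 ± 0.10), Ctxn3 (-3.03 ± 0.18), Cntn1, the adhesion protein contactin 1 (-2.94 ± 0.06), Crabp1, which binds retinoic acid in the cell (-2.93 ± 0.09), Cygb, cytoglobin (-2.86 ± 0.10), Psd2 (-2.85 ± 0.11) and Itga11, a collagen receptor subunit (-2.75 ± 0.19). Genes with no signal well above background in Ro were Shh, the secreted hedgehog ligand (at least 22.6-fold lower), Dhrs2 (7.17-fold or more), F13a1, a clotting transglutaminase (at least 7.00-fold), Prl2a1 (at least 6.90-fold), Rasgef1c (at least 6.84-fold), Glycam1 (at least 5.82-fold), the potassium channel gene Kcna4 (at least 4.93-fold) and Acot5 (at least 4.46-fold).

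**Figure D2:**
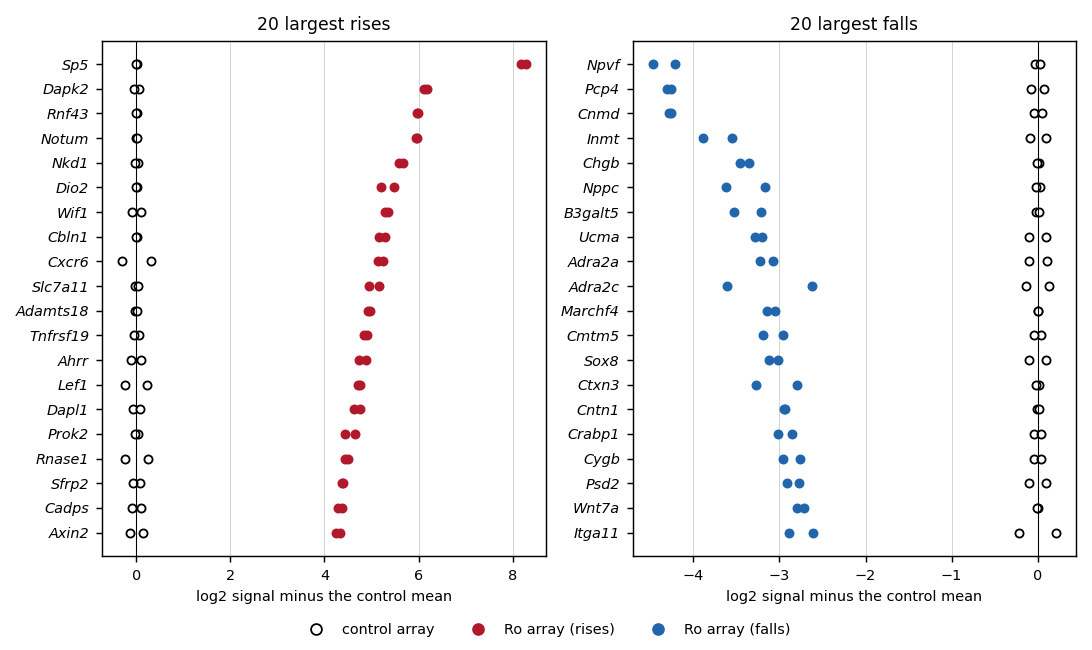
Signal of the largest rises and falls on each control and Ro array (log2), drawn as the difference from each gene's control mean. Each point is 1 array, so that the distance between the colours is the difference between the groups. The groups do not overlap for any gene drawn. Among the arrays of a group those of Adra2c in Ro lie widest apart. Their levels were -4.87 and -3.89 before the control mean of -1.26 was subtracted.

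All 9 measured Wnt ligands of 19 on the array passed the test, 6 of them lower and 3 higher. Wnt7a, a ligand made by neural progenitors and astrocytes, stood at 0.24 and 0.23 in control and at -2.56 and -2.48 in Ro, a change of -2.76 ± 0.07 (adjusted p = 0.00053 by limma). Wnt4 fell by 1.89 ± 0.21, Wnt7b by 1.69 ± 0.07, Wnt2 by 1.62 ± 0.08, Wnt9a by 1.47 ± 0.07 and Wnt5b by 1.36 ± 0.08. Wnt5a rose by 0.50 ± 0.09 (adjusted p = 0.018 by limma), and Wnt6, not well above background in control, was at least 2.19-fold higher. Without Ro 1 or Ro 2 1 ligand was higher in place of 3, with Wnt5a and Wnt11 no longer past the test (adjusted p of Wnt5a 0.091 and 0.090 by limma), and the lower count was 6. With all 6 arrays in the fit the higher count was also 1. The list's median difference was -1.47 against 0.003 over all features.

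Frizzled receptors and the other Wnt receptors moved both ways, with 6 of 16 measured genes higher and 6 lower. Fzd10 stood at -0.72 and -0.77 in control and at 3.16 on both Ro arrays, a rise of 3.90 ± 0.07. Fzd1 rose by 1.54 ± 0.07 and Fzd9 by 1.08 ± 0.09. Lgr6, a receptor for the Wnt-enhancing R-spondins, rose by 2.40 ± 0.07, and its relative Lgr5 was at least 1.53-fold higher than in control, where it was not well above background. Fzd8 fell by 1.26 ± 0.08, and Fzd4, Fzd5 and Fzd7, named after their values were seen, fell by 0.76, 0.84 and 0.83, with Fzd7 at an adjusted p of 0.051 and 0.054 without Ro 1 and Ro 2. Leaving out Ro 1 or Ro 2 brought the lower count to 3. The median of the list was 0.03.

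The list of Wnt feedback genes and secreted antagonists had the highest median of those described, 2.49, with 14 of 20 measured members higher and 5 lower. With normexp background correction, the replicate block or the authors' values 3 were lower. Most members restrain the pathway, but the list also holds Porcn, which readies Wnt ligands for secretion (-0.31 ± 0.11, adjusted p = 0.082 by limma), and the receptor gene Tnfrsf19. Rnf43, a ubiquitin ligase that removes Frizzled from the membrane, stood at -4.80 and -4.82 in control and at 1.17 on both Ro arrays, a rise of 5.98 ± 0.06 (adjusted p = 0.00021 by limma). Notum, an esterase that strips Wnt ligands of their lipid, stood at -2.46 and -2.44 against 3.52 and 3.49, a rise of 5.96 ± 0.06. Nkd1, which binds Dishevelled, stood at -0.23 and -0.29 against 5.42 and 5.33, a rise of 5.63 ± 0.07. These inhibitors act at different steps, and the arrays of each group lay close together for each. Apcdd1, a membrane inhibitor, rose by 5.92 ± 0.07 but was well above background on only 1 control array. The secreted Wnt-binding proteins Wif1 and Sfrp2 rose by 5.31 ± 0.09 and 4.39 ± 0.08, Tnfrsf19 by 4.87 ± 0.08, and Axin2, a scaffold of the destruction complex, by 4.29 ± 0.12. The 5 lower members, named after their values were seen, were Sostdc1 (-1.36), Sfrp4 (-0.79), Sfrp1 (-0.51), Sost (-0.36) and Kremen1 (-0.29), the last 3 of which lost the call without Ro 1 or Ro 2. The lower count was 2 without control 1, 3 without control 2, and 2 without Ro 1 or Ro 2, and the higher count was 14 in each of these fits. The list holds targets known to respond to the pathway, and it was drawn up with results of these arrays known.

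Among nuclear partners of beta-catenin, Lef1, a DNA-binding partner and itself a target, rose by 4.73 ± 0.18. Tcf7l1, which acts mostly as a repressor, fell by 1.38 ± 0.09. The corepressor Tle1 rose by 1.29 ± 0.07, while Tle2 and Tle6 fell by 1.13 ± 0.16 and 1.18 ± 0.07. Ctnnbip1, an inhibitor of beta-catenin, fell by 1.08 ± 0.08. Of 19 genes 7 were higher and 8 lower. Higher counts were 4 without control 1 and 3 without Ro 1 or Ro 2, and lower counts were 4 without control 1 or Ro 1 and 5 without control 2 or Ro 2.

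Transcripts of the kinase itself and of beta-catenin did not pass the test. Gsk3a, for the alpha form of GSK-3, stood at -2.91 and -2.61 in control and at -2.55 and -2.63 in Ro (0.17 ± 0.13, adjusted p = 0.33 by limma). Gsk3b, for the beta form, stood at -1.40 and -1.32 against -1.35 and -1.24 (0.06 ± 0.08, adjusted p = 0.55 by limma), and its other probe gave -0.14. Ctnnb1, for beta-catenin, stood at 4.15 on both control arrays and at 4.28 and 4.34 in Ro (0.16 ± 0.07, adjusted p = 0.13 by limma). The inhibitor acts on the kinase's activity, which arrays do not measure. Of 24 genes of GSK-3, AKT and the destruction complex 3 were higher and 6 lower. The kinase genes Akt2 and Sgk1 rose by 1.44 ± 0.08 and 1.25 ± 0.07, and Frat2, which encodes a GSK-3 binding protein, fell by 0.75 ± 0.08. The lower count was 3 without control 1 or control 2, 2 without Ro 1 and 1 without Ro 2.

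**Figure D3:**
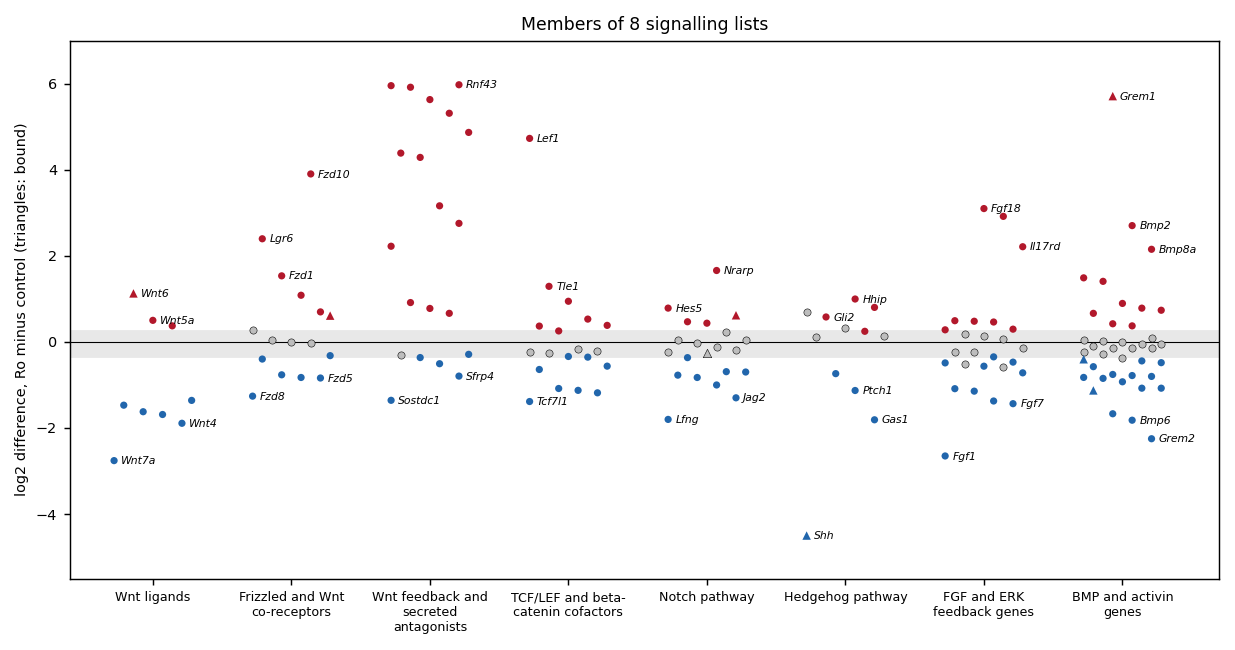
Difference between Ro and control (log2) for each measured gene of the signalling lists, 1 point per gene, coloured by the result of the test; triangles are lower bounds for genes not well above background in 1 group. The grey band spans the quartiles of all genes with a symbol, from -0.36 to 0.24, and Wnt feedback genes reach furthest above it.

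Other developmental signals changed in parts. Of 21 Notch genes 5 were higher and 8 lower: the Notch modifier Lfng fell by 1.80 ± 0.10, the ligands Jag2 and Dll1 by 1.30 ± 0.16 and 1.00 ± 0.07, and the target Hey1 by 0.83 ± 0.08, while Nrarp, a feedback target, rose by 1.66 ± 0.11. In the other direction from Jag2 and Dll1, the ligand Dll4, not well above background in control, was at least 1.54-fold higher. The higher Notch count was 2 without Ro 1 and 3 without Ro 2. In the hedgehog pathway, 4 of 12 measured genes were higher and 4 lower, and the higher count was 2 without Ro 2. Beside Shh, given above, Ptch1, the hedgehog receptor and a target gene, fell by 1.13 ± 0.07, Gas1, a co-receptor, by 1.81 ± 0.09 and Dhh, a ligand, by 0.74 ± 0.09. Gli3, a transcription factor of the pathway, rose by 0.80 ± 0.08. Smo, the signal transducer, stood at 4.70 and 4.53 in control and at 4.72 and 4.75 in Ro (0.11 ± 0.09, adjusted p = 0.33 by limma).

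Among 26 FGF genes 8 were higher and 10 lower. Fgf18 stood at -0.15 and 0.02 in control and at 3.01 and 3.06 in Ro, a rise of 3.10 ± 0.09, and the receptor Fgfr4 rose by 2.92 ± 0.09. Fgf1 fell by 2.65 ± 0.11 and the decoy receptor Fgfrl1 by 1.37 ± 0.07. Il17rd, a feedback inhibitor, rose by 2.21 ± 0.07 on 1 probe and stood at 0.01 on the other. The higher count was 5 without control 2 and 3 without Ro 1 or Ro 2, and the lower count was 6 without Ro 1 or Ro 2. Of 40 BMP and activin genes 11 were higher and 16 lower, with 7 higher without Ro 1 or Ro 2. Bmp2 rose by 2.70 ± 0.09, with 1 control array below the detection call, and Bmp6 fell by 1.82 ± 0.12.

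Semaphorins, plexins, netrins and slits, which guide axons and migrating cells, were 11 higher and 17 lower of 39. Sema6a rose by 2.05 ± 0.07 and Ntng1 by 1.62 ± 0.11, Sema3e and Sema3f fell by 1.97 ± 0.07 and 1.68 ± 0.15, and Plxnb3, not well above background in Ro, was at least 2.86-fold lower. The median of these genes was -0.35.

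Signalling through G proteins and cyclic nucleotides leaned towards lower expression. Of 52 measured G protein-coupled receptors of the Gpr and Adgr families 25 were lower and 5 higher, against 23.7% and 20.7% of all features, and the lower count was 16 without Ro 2. Gpr179 stood at -1.73 and -1.83 in control and at -4.39 on both Ro arrays, a change of -2.61 ± 0.07. Against that trend, Gpr37 rose by 3.59 ± 0.11 and the very large adhesion receptor Adgrv1 by 2.98 ± 0.15. Of 28 cyclic nucleotide enzymes 16 were lower and 5 higher, with a median of -0.52, or -0.44 with bounds. Adcy8, an adenylyl cyclase, fell by 2.22 ± 0.08, Npr3, a receptor that clears natriuretic peptides, by 1.29 ± 0.08, and the cyclic GMP kinase gene Prkg2 rose by 1.39 ± 0.08.

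Genes of transmitter handling, the work astrocytes do at synapses, moved gene by gene. Slc1a2, the glutamate transporter GLT-1, stood at 0.54 and 0.37 in control and at 1.58 and 1.75 in Ro, a rise of 1.21 ± 0.10 (adjusted p = 0.0031 by limma). Slc1a3, the transporter GLAST, stood at 5.66 and 5.50 against 5.60 and 5.67 (0.06 ± 0.09, adjusted p = 0.63 by limma), and its groups overlapped. Slc1a1, the third glutamate transporter of the list, fell by 1.93 ± 0.10. Slc1a5 and Slc38a2, transporters of neutral amino acids, rose by 2.50 ± 0.07 and 1.37 ± 0.07, Slc38a3, which releases glutamine, fell by 1.26 ± 0.09, and Gad1, which makes GABA, rose by 2.29 ± 0.07. Slc6a11, the GABA transporter GAT3, was not well above background in Ro and was at least 3.58-fold lower. Of 19 measured genes of this kind 7 were higher and 4 lower.

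Of 25 glutamate and GABA receptor genes 6 were higher and 8 lower. The metabotropic receptor gene Grm3 stood at -2.29 and -2.57 in control and at 0.52 and 0.56 in Ro, a rise of 2.97 ± 0.12. Grm5, the other metabotropic receptor known from astrocytes, fell by 3.90 ± 0.13 on the brighter probe, which was above background on only 1 Ro array, and by 0.70 on the other. The ionotropic subunit genes Gria2 and Gabrb1 fell by 2.15 ± 0.11 and 1.98 ± 0.09, Gabra2 rose by 2.36 ± 0.08, and Grik1 was at least 5.06-fold higher than in control, where it was not well above background. Gabbr1, a subunit of the GABA-B receptor, is given as uncertain, since its probes gave -0.62, 1.39 and 1.72, all past the test.

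The connexins that join astrocytes rose. Gja1, connexin 43, stood at 2.57 and 2.71 in control and at 3.31 and 3.36 in Ro, a rise of 0.70 ± 0.08 (adjusted p = 0.0062 by limma). Gjb6, connexin 30, stood at -3.63 and -3.94 against -0.36 and -0.32, a rise of 3.45 ± 0.13. Gjb2, connexin 26, stood at -3.69 and -2.71 against 0.54 and 0.50, a rise of 3.72 ± 0.35, with the control arrays further apart than for the other connexins named. The pannexin gene Panx1 rose by 0.77 ± 0.07 and Gjc1, connexin 45, fell by 0.53 ± 0.07, with an adjusted p of 0.056 by limma without Ro 1. Of 9 measured genes 5 were higher and 2 lower, and the lower count was 1 without control 1 or Ro 2 and 0 without Ro 1.

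Potassium channel genes were 16 lower and 8 higher of 32, with a median of -0.40, and the higher count was 4 without Ro 1. Kcnf1, Kcnk2 and Kcns3 fell by 1.90 ± 0.09, 1.74 ± 0.13 and 1.55 ± 0.10, and Kcnn4 and Kcnmb1, not well above background in Ro, were at least 2.22-fold and 1.97-fold lower. Purinergic receptors and the enzymes that break down extracellular nucleotides were 10 lower and 5 higher of 18, with 6 lower without Ro 1. The adenosine receptor gene Adora1 stood at 3.45 and 3.53 in control and at 1.19 and 1.32 in Ro, a change of -2.23 ± 0.08, and its 3 probes gave -2.40 to -1.41. P2ry2 fell by 1.39 ± 0.08 and the ectonucleotidase Entpd2 by 1.34 ± 0.08, while Nt5e, which forms adenosine, rose by 1.59 ± 0.10. Among 21 neuropeptide and granin genes 5 were higher and 8 lower. Beside the falls of Npvf, Chgb and Nppc, the peptide genes Cck and Npy rose by 1.82 ± 0.19 and 1.17 ± 0.09, and Cpe, which trims peptide hormones, by 1.25 ± 0.08.

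Glucose and bicarbonate transport and glycogen genes were mostly lower where they changed. Slc2a1, the glucose transporter GLUT1, stood at 4.14 and 4.06 in control and at 2.91 and 3.03 in Ro, a change of -1.13 ± 0.08 (adjusted p = 0.0021 by limma). The insulin-responsive transporter gene Slc2a4 fell by 1.98 ± 0.09 and Slc4a4, the sodium bicarbonate cotransporter of astrocytes, by 1.99 ± 0.08. Of 24 such genes 12 were lower and 4 higher, with 1 higher without Ro 1 or Ro 2. Gys1, the glycogen synthase gene expressed in brain, stood at -1.80 and -1.77 in control and at -1.65 and -1.59 in Ro (0.17 ± 0.07, adjusted p = 0.11 by limma). Of 21 glycogen genes 7 were lower and 1 was higher, the latter count being 0 without any 1 of the arrays. Ppp1r3c and Ppp1r3d, which target a phosphatase to glycogen, fell by 1.40 ± 0.08 and 1.04 ± 0.07, Ugp2, which makes UDP-glucose, by 1.37 ± 0.07, and Phkg1, a phosphorylase kinase subunit, by 1.39 ± 0.07.

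Redox genes did not move as a block. Of 39 genes of glutathione metabolism and NRF2 targets 9 were higher and 13 lower, and without Ro 1 the counts were 5 and 8. Slc7a11, which supplies cystine for glutathione, rose as given above, and Gsta1, a glutathione transferase, rose by 1.91 ± 0.07. The transferase genes Gstm3 and Gstm6 fell by 1.68 ± 0.09 and 2.01 ± 0.09.

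Enzymes of thyroid hormone, retinoid and steroid handling held several large rises, with 10 higher and 8 lower of 26, and 5 lower without Ro 1. Aldh1a1, which makes retinoic acid, stood at 3.55 and 3.46 in control and at 6.25 and 6.39 in Ro, a rise of 2.81 ± 0.08. Crym, which binds thyroid hormone in the cell, rose by 1.91 ± 0.06 and Hsd11b1, which activates glucocorticoids, by 2.18 ± 0.11. Crabp1, which binds retinoic acid, was among the largest falls.

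Genes of the cytosolic ribosome rose together, by small amounts. Of 76 measured ribosomal protein genes 69 were higher and none lower, with a median of 0.58, and the share of all features higher was 20.7%. Rpl14 stood at 0.66 and 0.60 in control and at 1.70 and 1.75 in Ro, a rise of 1.10 ± 0.07. Rpl27a rose by 0.98 ± 0.07, Rpl31 by 0.90 ± 0.06 and Rps6, of the small subunit, by 0.86 ± 0.07 (adjusted p = 0.0028 by limma). Rplp0 and Rplp1, of the stalk, stood at 0.19 ± 0.13 and 0.17 ± 0.10 and did not pass the test. Probes for these genes can also bind transcripts of their many processed copies, which was not tested. The count was 26 without Ro 1 and 25 without Ro 2.

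Genes that build ribosomes and start translation moved with them. Of 42 nucleolar and assembly genes 27 were higher and none lower (median 0.35), the count being 15 and 17 without control 1 and control 2, and 6 and 4 without Ro 1 and Ro 2. Npm1, nucleophosmin, stood at 4.77 and 4.79 in control and at 5.58 and 5.49 in Ro, a rise of 0.76 ± 0.07, and Gnl3, nucleostemin, rose by 0.74 ± 0.07. Of 47 translation factors 23 were higher and none lower (median 0.26), but 3 without Ro 1 and 4 without Ro 2. The elongation factor genes Eef1b2 and Eef1g rose by 0.79 ± 0.07 and 0.62 ± 0.07, and Eif2b4, of the factor eIF2B that GSK-3 is known to phosphorylate on another subunit, by 1.17 ± 0.08. Of 29 amino acid synthesis genes and ATF4 targets 14 were higher and 2 lower. Psat1, of serine synthesis, rose by 1.26 ± 0.09, and Slc7a5, an amino acid transporter, by 0.67 ± 0.07. That list's higher count was 9 without control 2, 3 without Ro 1 and 6 without Ro 2, and its lower count was 1 without Ro 1 or Ro 2.

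In the 5 lists described next between 9.76% and 25% of members passed the test, against 44.3% of all features. Other lists of cell machinery had larger shares, at 41.9% for lysosomal hydrolases and membrane proteins, 51.7% for autophagy genes and 68.2% for chaperones and the unfolded protein response. Of 63 mitochondrial ribosomal protein genes 10 were higher and 1 lower, and the higher count was 6, 5, 3 and 1 without control 1, control 2, Ro 1 and Ro 2, with 0 lower in each. Of 41 proteasome subunit genes 2 were higher and 2 lower; Psme4, an activator, rose by 1.01 ± 0.07 and Psmb9, of the interferon-inducible immunoproteasome, fell by 0.86 ± 0.09. Leaving out any 1 array gave 1 higher, and leaving out Ro 1 or Ro 2 gave 1 lower. Of 18 TCA cycle enzymes 2 were higher and none lower, with 0 higher without control 2, Ro 1 or Ro 2. Of 20 aminoacyl-tRNA synthetases 5 were higher, with 3 without control 2 and 1 without Ro 1 or Ro 2. Of 52 genes of DNA replication and mitosis 7 were higher and 5 lower, none of them 2-fold. The higher count there was 1, 3, 0 and 1 without control 1, control 2, Ro 1 and Ro 2, and the lower count was 2 without control 2 and 0 without Ro 1 or Ro 2. With an intensity trend in the variance model the higher counts were 23 for the mitochondrial ribosome, 10 for the proteasome, 7 for the TCA cycle and 15 for DNA replication and mitosis. All these cultures had been exposed to AraC before treatment.

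**Figure D4:**
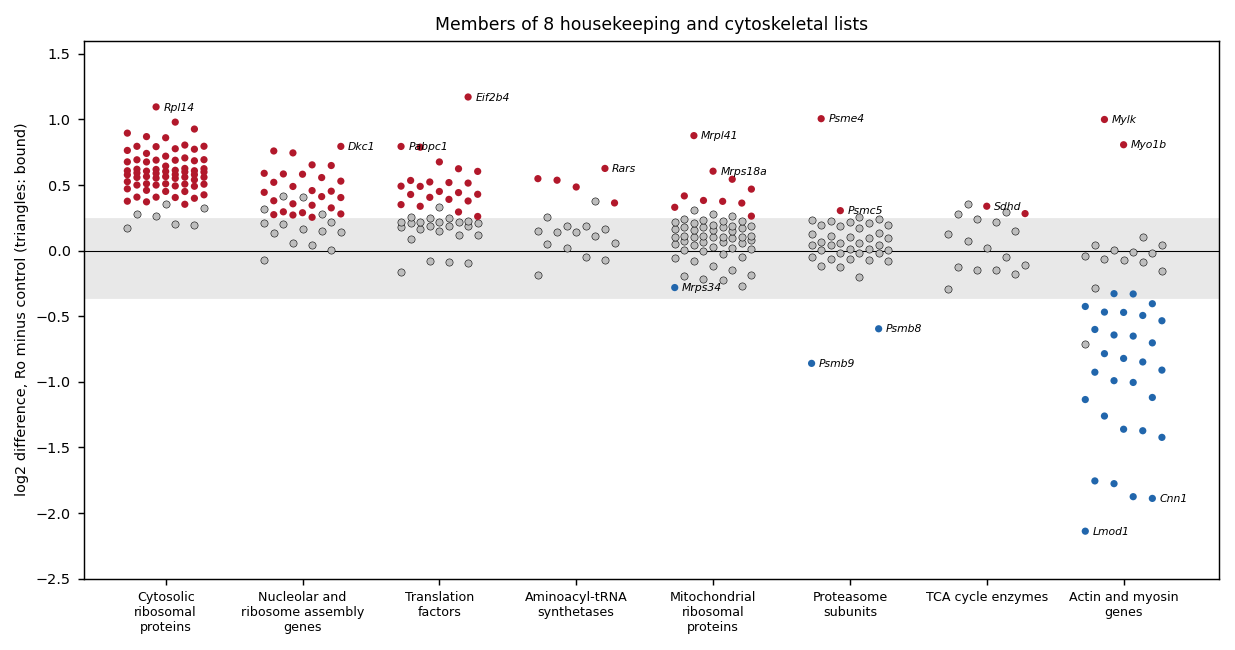
Difference between Ro and control (log2) for each measured gene of 8 lists on translation, the proteasome, the TCA cycle and actin and myosin, 1 point per gene, with the quartiles of all genes with a symbol (-0.36 to 0.24) as a grey band. Cytosolic ribosomal protein genes lie above the band as a group (median 0.58), and proteasome subunit genes lie mostly within it (median 0.06).

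Cell cycle regulators went both ways, 9 higher and 9 lower of 26. Myc, a growth regulator and a known Wnt target in gut, stood at 1.21 and 1.29 in control and at 0.07 and 0.12 in Ro, a change of -1.15 ± 0.07, and its 3 probes gave -1.15 to -1.02. Mycn rose by 1.41 ± 0.07 on the brighter of its probes and by 0.46 on the other, and the inhibitor gene Cdkn1c rose by 1.30 ± 0.16. The higher count was 5 without Ro 1 and the lower count 4 without Ro 1 or Ro 2.

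Among cytoskeletal genes, 30 of 45 actin and myosin genes were lower and 2 higher, with a median of -0.60. Cnn1, a calponin of smooth muscle, stood at 6.83 and 6.93 in control and at 4.94 and 5.05 in Ro, a change of -1.89 ± 0.08. Lmod1, leiomodin, fell by 2.14 ± 0.10, the actin genes Actc1, Acta1 and Acta2 by 1.88 ± 0.11, 1.78 ± 0.08 and 1.76 ± 0.08, and Myl9, a myosin light chain, by 1.42 ± 0.12. The 3 probes of Acta2 gave -2.23 to -1.30. Of 9 measured pericyte and smooth muscle markers 7 were lower and 1 higher, and their summed signal, in multiples of the array's 75th percentile, went from 561 and 615 in control to 215 and 217 in Ro. Acta2 and Tagln, which share both lists, hold much of that sum, and Abcc9 and Des were not measured. The part of such cells in the falls was not tested. In RNA from a whole culture, fewer cells of a type and less RNA per cell cannot be told apart.

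Of 43 tubulin and microtubule-associated genes 22 were lower and 5 higher. Stmn2, a tubulin-binding stathmin, fell by 2.22 ± 0.07, Tubb3, the tubulin used as a neuronal marker, by 1.08 ± 0.09 and Tubb2b by 1.04 ± 0.13. The lower count was 14 without Ro 1, and the higher count was 2 without control 1, 1 without control 2 and 0 without Ro 1 or Ro 2. Of 12 measured neuron markers 4 were lower and 4 higher, with sums of 39.1 and 46.9 in control and 29.7 and 32.9 in Ro, and Snap25, Slc17a6, Slc17a7 and Dcx were not measured. The neurofilament gene Nefm, among the neuron markers that rose, stood at -4.31 and -4.22 in control and at -1.86 and -2.18 in Ro (2.24 ± 0.13).

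Genes of motile cilia fell nearly as a block, 23 lower and 1 higher of 27, with a median of -1.16, or -1.10 with bounds. Ccdc153 stood at 1.64 and 1.62 in control and at -1.18 and -0.93 in Ro, a change of -2.68 ± 0.11. Tekt4, a tektin of the axoneme, fell by 1.96 ± 0.12, and the dynein genes Dynlrb2 and Dnali1 by 1.85 ± 0.11 and 1.75 ± 0.13. Foxj1, the factor that drives the programme of motile cilia, fell by 1.16 ± 0.10. Without control 2 or Ro 2 no gene of the list was higher. The summed signal of 8 ependymal and choroid plexus markers, of which Ccdc153, Dynlrb2 and Foxj1 are 3, went from 50.5 and 50.9 to 17.6 and 20.6, with Ttr and Kl not measured. Of these 8 markers 5 were lower and 1 higher, the last count being 0 without Ro 1 or Ro 2. Their part in the fall was not tested.

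Extracellular matrix genes leaned lower. Of 41 collagen genes 21 were lower and 3 higher (median -0.44): Col8a2 stood at 0.63 and 0.60 in control and at -2.14 and -1.93 in Ro (-2.64 ± 0.10), Col5a3 fell by 2.12 ± 0.09, and Col23a1 rose by 2.24 ± 0.09. Of 50 proteoglycan and hyaluronan genes 22 were lower and 13 higher, with 8 higher without Ro 1. Fmod, fibromodulin, fell by 2.49 ± 0.08 and Omd, osteomodulin, by 1.72 ± 0.10. Of 26 matricellular genes 14 were lower and 5 higher. Ccn2, connective tissue growth factor, stood at 6.30 and 6.34 in control and at 4.29 and 4.20 in Ro, a change of -2.08 ± 0.07, and Postn, periostin, fell by 1.81 ± 0.10. In the other direction, Thbs4, a thrombospondin, rose by 3.33 ± 0.08 and Rspo1, an R-spondin that strengthens Wnt signals, by 3.08 ± 0.07.

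Matrix proteases and their inhibitors were 14 higher and 20 lower of 46, with 12 lower without Ro 1 and 13 without Ro 2. Mmp10, Mmp13 and Adamts19, not well above background in control, were at least 5.01-fold, 3.75-fold and 3.59-fold higher, while Timp4 fell by 2.05 ± 0.09 and Adamts9 by 1.93 ± 0.07. Of 12 measured meningeal fibroblast markers, a type of cell that makes such matrix, 5 were lower and 2 higher, with sums of 23.1 and 28.6 in control and 21.5 and 20.8 in Ro. Slc22a6, Slc6a13 and Crabp2 were not measured, and the part of such cells was not tested. The lower count of these markers was 3 without control 2, Ro 1 or Ro 2, and the higher count was 1 without control 1, control 2 or Ro 2 and 0 without Ro 1.

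Of 37 interferon-response and antigen presentation genes 21 were lower and 3 higher (median -0.49). Isg15, a ubiquitin-like protein induced by interferon, stood at 1.37 and 0.92 in control and at -0.49 and -0.30 in Ro, a change of -1.54 ± 0.18 (adjusted p = 0.0062 by limma). Ifit3, Oasl2 and Irf7 changed by -1.76 ± 0.20, -1.52 ± 0.17 and -1.40 ± 0.18. Control 1 lay above control 2 for all 4 genes, and the Ro arrays lay below both. Counts were 10 lower and 1 higher without Ro 1, and 13 and 1 without Ro 2. Of 25 complement and acute phase genes 8 were lower and 5 higher. C3, the central complement protein, fell by 1.64 ± 0.11 on its brighter probe and by 0.87 on the other, and Itih3 and Ptx3 fell by 2.09 ± 0.09 and 1.47 ± 0.07. The higher count of that list was 1 without control 1, control 2 or Ro 2, and 2 without Ro 1.

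Of 23 chemokine and chemokine receptor genes 11 were lower and 6 higher. Cxcl12 fell by 1.43 ± 0.07, and Ccl6 and Ccl9, not well above background in Ro, were at least 3.35-fold and 2.67-fold lower, while Cxcr6 was among the largest rises. Of 17 measured microglia markers 7 were lower and 1 higher. Cx3cr1, the fractalkine receptor, stood at -1.89 and -2.16 in control and at -3.85 and -3.72 in Ro (-1.76 ± 0.12), Csf1r fell by 1.26 ± 0.13 and Aif1, which encodes Iba1, by 1.09 ± 0.15, while Tmem119 rose by 0.93 ± 0.09. The summed signal of the microglia markers was 31.7 and 30.8 in control and 27.6 and 33.1 in Ro, so that it overlapped between groups although single members fell, and P2ry12 and Spi1 were not measured. The part of microglia in the immune genes was not tested.

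Transcription factors of brain patterning moved in both directions. Of 41 homeobox and related patterning factors 19 were higher and 12 lower, with 12 higher without Ro 1 or Ro 2. Nkx6-2, of the oligodendrocyte and ventral lineages, stood at 4.20 and 4.11 in control and at 1.68 and 1.81 in Ro, a change of -2.41 ± 0.08. Nkx2-2 fell by 1.53 ± 0.11, and Lhx5, not well above background in control, was at least 5.76-fold higher. Of 26 Sox, Pax and neural bHLH factors 6 were higher and 10 lower. Olig1 stood at 4.20 and 4.21 against 2.15 on both Ro arrays (-2.05 ± 0.06), Olig2 fell by 2.04 ± 0.06, and Tcf4 and Tcf12, partners of bHLH factors and not TCF/LEF factors, rose by 1.41 ± 0.07 and 1.27 ± 0.09. The second probe of Tcf4 gave 0.66.

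The zinc finger genes with Zfp symbols, mostly of little known function, were 79 higher and 27 lower of 280 against 20.7% and 23.7% of all features. They were 8 and 6 without Ro 1, 10 and 8 without Ro 2, 35 and 12 without control 1, and 36 and 17 without control 2. With the authors' values 14 were lower, and with normexp background correction 50 were higher and 15 lower. Olfactory receptor genes, which are not known from astrocytes, passed the filter for 123 of 884 on the array, of which 19 were lower and 3 higher. Their lower count was 6 without Ro 1 and 8 without Ro 2, and the higher count was 1 without control 1 and 0 without Ro 1. Thus 17.9% of these genes passed the test against 44.3% of all features.

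Markers of astrocytes themselves fell more often than they rose, 19 lower and 6 higher of 31, with a median of -0.66. Gfap, the intermediate filament protein, stood at 4.07 and 3.90 in control and at 2.98 and 3.02 in Ro, a change of -0.98 ± 0.09 (adjusted p = 0.0035 by limma). Aqp4, the water channel of astrocyte endfeet, stood at 4.0 and 4.01 against 2.10 and 2.18, a change of -1.87 ± 0.07. Aldh1l1, a folate enzyme widely used as a marker, stood at 5.14 and 5.12 against 4.10 and 4.25, a change of -0.95 ± 0.08. These markers were lower on each Ro array, but were well above background on all 4 arrays. Fabp7, a lipid-binding protein of immature astrocytes and radial glia, fell by 2.05 ± 0.07 and F3, tissue factor, by 2.02 ± 0.07, while Dio2, Gjb6, Slc1a2 and Gja1 rose as given above. The summed marker signal went from 754 and 748 in control to 508 and 522 in Ro, with Gpc5 not measured. Of 17 radial glia and progenitor markers 7 were lower and 2 higher, with 1 higher without Ro 1. Nes, nestin, fell by 1.12 ± 0.08, and the sum of these markers went from 355 and 372 to 180 and 184. The median of that list was -0.25. Fabp7 and Slc1a3 belong to the astrocyte list as well, so the sums of the lists are not separate measurements.

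The oligodendrocyte precursor markers all passed the test, 5 lower and 2 higher of 7 measured. Cspg4, the NG2 proteoglycan, fell by 1.64 ± 0.11 and Olig1, Olig2 and Nkx2-2 as given above, while Pcdh15, not well above background in control, was at least 9.77-fold higher and Lhfpl3 rose by 0.94 ± 0.09. The sum went from 24.9 and 25.3 to 6.75 and 6.77, and Gpr17 and Neu4 were not measured. Olig1 alone held most of that sum in both groups. Of 8 mature oligodendrocyte markers 3 were higher and 2 lower, with 1 lower without Ro 1. Mal, a myelin membrane protein also made elsewhere, stood at -2.04 and -2.16 in control and at 1.68 and 1.66 in Ro, a rise of 3.77 ± 0.08, and Mbp fell by 1.11 ± 0.17. Their sum was 8.27 and 7.46 in control and 11.9 and 13.7 in Ro, with Mog, Ugt8a and Opalin not measured. Of 6 measured endothelial markers 2 were higher and 2 lower. Kdr, a VEGF receptor, rose by 3.11 ± 0.09, while the defining genes Pecam1, Cdh5, Tek, Tie1, Cldn5 and Ly6c1 were not measured, and the sum went from 1.47 and 1.62 to 3.53 and 3.78. The endothelial higher count was 1 without control 1, Ro 1 or Ro 2 and the lower count 1 without Ro 2.

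**Figure D5:**
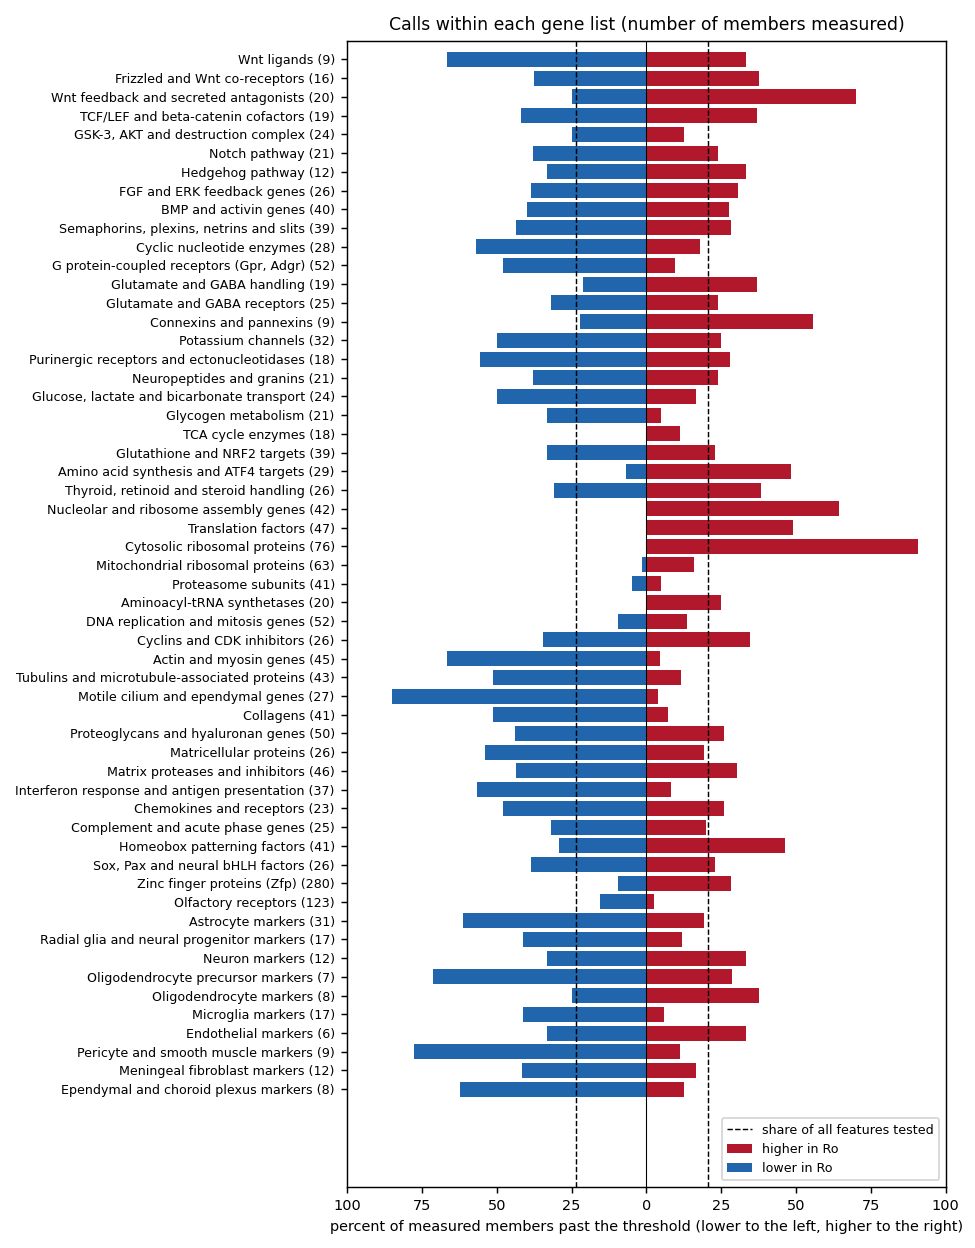
Share of each gene list's measured members that were higher (right) and lower (left) in Ro at an adjusted p of 0.05, in percent, for all 56 lists described, with the number measured. Dashed lines mark the shares over all features, 20.7% higher and 23.7% lower; cytosolic ribosomal protein genes reach furthest to the right and motile cilium genes far to the left.

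Genes with several probes gave a check on single measurements. Of 2144 called genes with at least 2 probes, 94.6% had all probes on the same side of 0, and among the 388 with a change of at least 2-fold 97.2% did. In 23 genes probes passed the test in opposite directions. B4galt1, a galactosyltransferase, gave -1.16, 0.32 and 0.35, and Gabbr1 is given above. The call of B4galt1 rests on its brightest probe, at 0.32, and it was lost without control 1, Ro 1 or Ro 2 (adjusted p = 0.11, 0.14 and 0.18 by limma).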

How the data were processed

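RNA of the cultures was labelled with Cy3 and hybridised to one-colour Agilent arrays, 1 array per culture. Per the file headers the scans were extracted with Feature Extraction 10.5.1.1, while the submitters' processing notes name version 10.1. The deposited processed intensity is linear, with the background of every array already subtracted by the authors and arrays left unscaled. A deposited table of all arrays gives linear ratios, which the authors centred per probe in a way the sources used here do not give. Centred log2 values of that table and of the processed intensity correlated at r of at least 0.993 per array, and the table was used only as an alternative.

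Marked spots were dropped and the remaining spots of a probe were averaged. Probes whose spots were all marked on any of the 4 arrays were dropped (22 of 41174 non-control probes). From the log2 intensity the array's 75th percentile was subtracted. Probes well above background on both arrays of either group were kept (26405) and named through RefSeq accessions (build GRCm38.p6 table), which gave a symbol for 25097 of all probes (61.0%). The brightest probe stood for a gene, giving 20026 features, 13031 with a symbol. The 4 arrays were fitted with limma 3.58.1 in R 4.3.3 (2 residual and 2.11 prior degrees of freedom), with two-sided moderated tests, Benjamini-Hochberg adjustment over all features and a threshold of 0.05. Errors are limma's standard errors, with n = 2 per group. The steps were tested on simulated data. Figures used matplotlib 3.10.9 in Python 3.11.15. Same-numbered arrays of the groups deviated from their group means at r = -0.131, so the numbers were not taken as pairs.

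Genes named are the 20 largest rises and 20 largest falls measured on all 4 arrays without overlap, up to 8 bounds per direction, 10 chosen genes, up to 6 members past the test and 2 not past it of each list (all members of lists of up to 12), genes whose probes disagree, and promoters with a core. The lists and rules were chosen with earlier results of these data known. Alternatives concerned scaling, background, the filter, the variance model, averaging of probes, a fit of all 6 arrays, pairing, a fold minimum, the authors' values, and each array left out in turn.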

Additional observations from a re-analysis of the deposited data

How the results depend on the processing

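Of 20026 features 4142 were higher and 4738 lower. The counts lay within 1.5 times of these with median centring, quantile normalization, an intensity trend, averaged probes, all 6 arrays in the fit, the authors' values and a filter on all 4 arrays. The other values were 464 higher and 675 lower at 2-fold with normexp background correction, 1757 higher and 2545 lower without a filter on dim probes (32649 features), and 1876 and 2673 with a minimum of 1.2-fold. Leaving out 1 array gave 1627 to 3260 higher and 2548 to 3947 lower, and 823 to 994 and 1325 to 1438 at 2-fold. The cause of these shifts was not tested, beyond the smaller number of arrays or the larger number of features. In the 16 alternatives no feature was called in the opposite direction, except 2 when a gene's probes were averaged. The share of calls that were higher was 46.6%, and 51.9% with the authors' values. Among named genes B4galt1 changed sign with the mean of its probes (-0.16). Of genes not past the test, Gsk3b stood at -0.040 with the mean of its probes and Slc1a3 at -0.027 with quantile normalization, and at -0.024 to 0.14 with 1 array left out. With the array number as a replicate block 2778 were higher and 3563 lower, which was within 1.5 times. With the Ro numbers exchanged in that paired fit, which was chosen after seeing the data, 3927 were higher and 4534 lower.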

Other observations

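Of the 20026 features, 6995 had no symbol and could not be described by gene, and of these 1487 were higher and 1321 lower in Ro.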
